A study of Homo sapiens with 6 samples.

Results

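The genes described here encode the nuclear pore complex and the receptors that carry cargo through it. They were chosen by symbol: numbered nucleoporins (NUP), importin alpha and beta (KPNA, KPNB), the importins (IPO), exportins (XPO) and transportins (TNPO), together with RAN, RANBP1, RANBP2, POM121, SEH1L, RAE1 and TPR. The name rule matched 50 genes, all of them listed at all 3 times, out of 11886 genes so listed. RNA came from U2OS, an established human osteosarcoma line, in 6 libraries. Cells carried siE2F7, an siRNA against the transcription factor E2F7, and were taken 0, 3 or 12 h after release from a hydroxyurea block, or carried the control siNT and were taken at the same times, with 1 library for each arm and time. Both arms had been held for 24 h in 4 mM hydroxyurea, so the libraries of 0 h are blocked cells and not untreated ones, and the submitters place the times at the G1/S transition, in S phase and at the G2/M boundary.

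The nuclear pore is a channel through the nuclear envelope built from rings of scaffold nucleoporins around a centre filled with flexible domains rich in phenylalanine and glycine, which let receptors pass. Import receptors pick up cargo in the cytoplasm and drop it where the GTPase Ran is bound to GTP, in the nucleus, while exportins bind cargo together with that form of Ran. In human cells the pores come apart when mitosis begins and are rebuilt as it ends, and new pores are added through interphase. E2F7 is a repressor of genes under E2F control.

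Expression was deposited as FPKM, a read abundance corrected for the length of the transcript and for the size of the library; total read numbers were not used here, so the depth is unknown. E2F7 stood at 9.48, 10.6 and 5.52 FPKM in siE2F7 cells at 0, 3 and 12 h, against 20.3, 29.4 and 16.6 FPKM in siNT cells, lower at every time. Of 8 osteoblast lineage markers 5 were listed, summing to between 288 and 388 FPKM in siE2F7 libraries and to between 346 and 414 FPKM in siNT libraries, while BGLAP, IBSP and SP7 were not listed. The 4 epithelial markers summed to between 200.2 and 222 FPKM in siE2F7 and to between 239 and 299 FPKM in siNT, nearly all of it KRT8 and KRT18, and CDH1 was listed in 4 of the 6 libraries. LAPTM5 was the only one of 4 blood markers listed, at 0.937 to 1.79 FPKM in siE2F7 and 1.64 to 2.47 FPKM in siNT, and none of 3 endothelial markers was. Each of the 5 listed osteoblast markers and the epithelial sum were lower in siE2F7 than in siNT at every time, along with each change between the arms given below, and their part in those changes was not tested. Within the epithelial sum EPCAM went the other way at 12 h, with 3.27 FPKM in siE2F7 and 2.33 FPKM in siNT.

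Most genes of the pore and its receptors differed little between the arms. The knockdown was tested with limma on log2(FPKM + 0.1) over all 11886 genes, with time as a block and a Benjamini-Hochberg threshold of 0.05, and a log2 change is siE2F7 over siNT throughout. Of the 50 genes 6, or 12.0%, rose (NUP210, NUP62CL, NUP50, RANBP1, IPO9 and NUP62), where 6.76% of all genes did. IPO8 and KPNA6 fell, 2 of the 50 or 4.00%, where 7.13% of all genes fell. The 8 calls are 16.0% of the 50 genes and calls were 13.9% of all genes, so the share is near the background. With each library centred on its median, 7 rose and 1 fell. Without the variance trend limma called only NUP210 and NUP62CL, and without the time block none of the 50, of which 8 had an unadjusted p under 0.05. The median log2 change was 0.057 over the 50 genes and -0.031 over all genes. A 95% interval within 0.5 of 0 was found for 44 of the 50, the called genes IPO9 and NUP62 among them. The share of all genes with such an interval was not taken. The median standard error was 0.073 for the 50 genes and 0.092 for all genes, so narrow intervals do not set the 50 apart. In cells in bulk, a change of the RNA per cell and a change in the share of cells at a given stage cannot be told apart. Separate cultures are not stated for the 3 times, so a p-value here measures only how these 6 libraries vary, which may be technical.

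**Figure D1:**
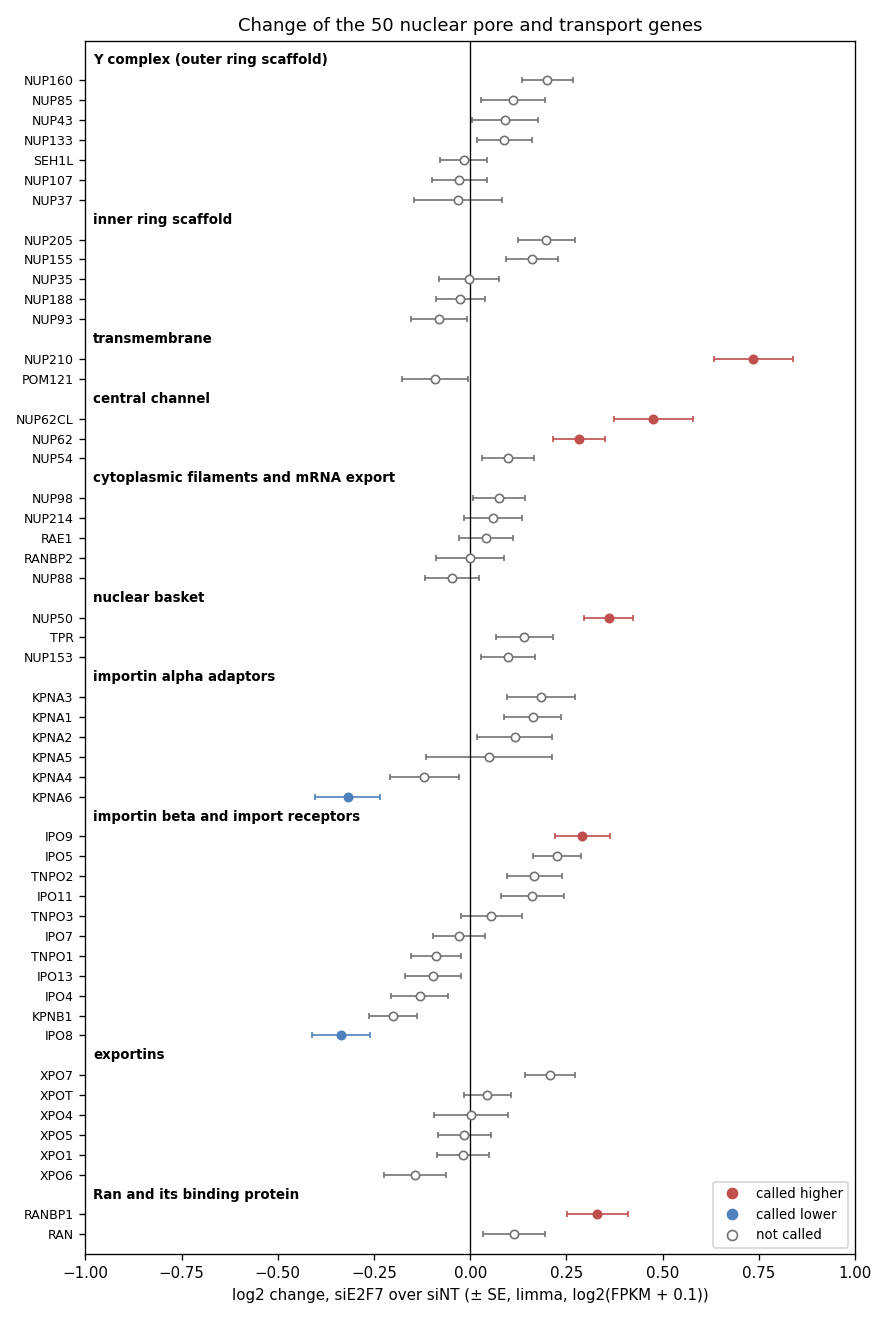
Log2 change of each of the 50 genes, siE2F7 over siNT, with its standard error (limma fit over 6 libraries), grouped by role in the pore or in transport. Filled points are the 6 genes called higher and the 2 called lower; NUP210, at 0.74, stands farthest from 0.

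**Figure D2:**
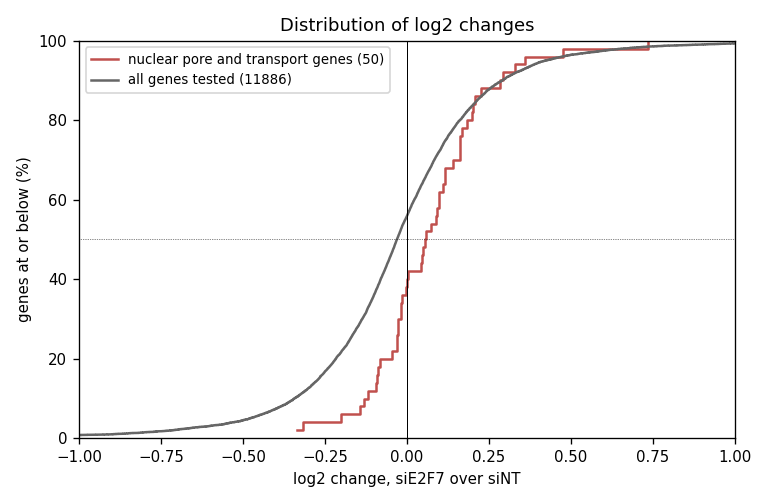
Share of genes at or below each log2 change, siE2F7 over siNT, for the 50 nuclear pore and transport genes and for all 11886 genes tested (the axis is limited to changes between -1 and 1). The curve of the 50 genes is steeper and crosses its median at 0.057, against -0.031 for all genes. The median standard error was also smaller, 0.073 for the 50 genes and 0.092 for all genes.

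Across the 3 times more of the genes leaned upward than downward. Of the 50 genes 21 (42.0%) were higher in siE2F7 at all 3 times, where 22.8% of all genes were, and 7 (14.0%) were lower at all 3, where 28.6% of all genes were. For 10 genes every siE2F7 library lay above every siNT library (6.88% of all genes), and for 4 every siE2F7 library lay below (8.76% of all genes). Those 4 were IPO8, KPNA6, KPNB1 and XPO6. A lack of overlap, here and below, also sets libraries of different times side by side, which may have been scaled separately. At single times, where 1 library is set against 1 and there is no test, 4, 5 and 4 of the genes were at least 1.25-fold higher in siE2F7 at 0, 3 and 12 h, against 9.56%, 11.6% and 13.5% of all genes. At least 1.25-fold lower were 2 at each time, against 13.6%, 13.2% and 17.6% of all genes. These shares were not matched for level. The median of the 50 genes was 23.9 to 27.6 FPKM in the 6 libraries, against 10.1 to 10.6 FPKM over all listed genes. NUP210 and NUP62CL were past this fold at all 3 times.

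**Figure D3:**
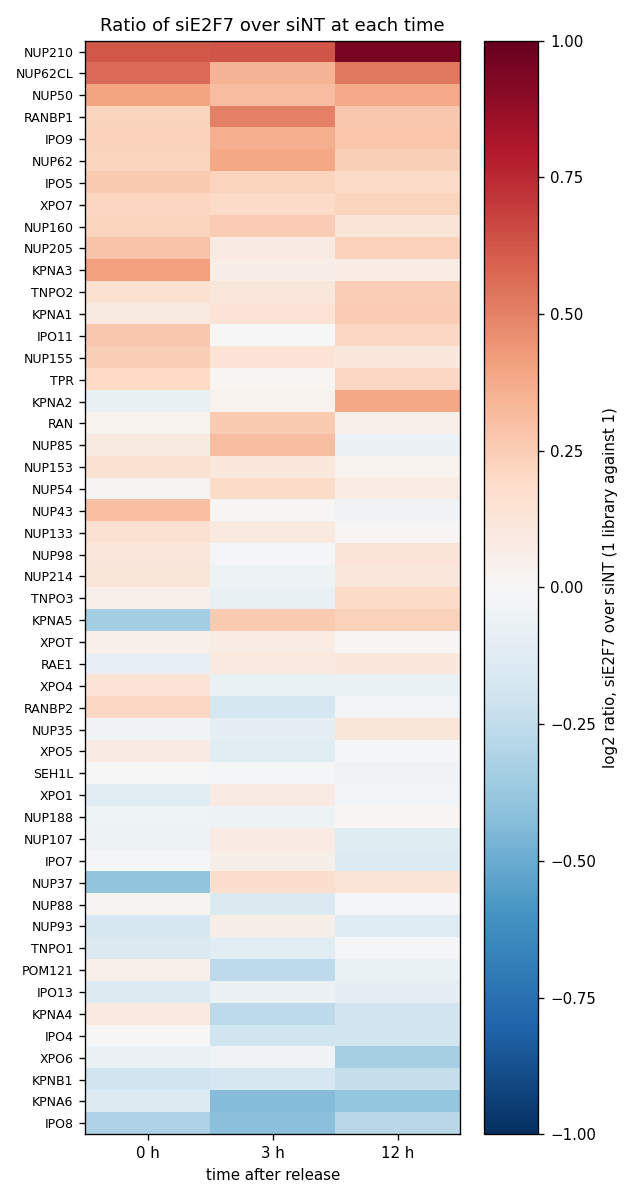
Log2 ratio of siE2F7 over siNT at 0, 3 and 12 h (1 library against 1 at each time) for the 50 genes, ordered by their mean change. NUP210 is at 0.62, 0.63 and 0.95, IPO8 is negative at each time, and genes in the middle, such as NUP37 and KPNA5, change sign between times.

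The membrane nucleoporins held the widest change. NUP210 (gp210), a glycoprotein that spans the nuclear envelope at the pore (hg19, chromosome 3, 13357737 to 13461809), stood at 10.9, 9.49 and 7.36 FPKM in siE2F7 cells at 0, 3 and 12 h, against 7.06, 6.09 and 3.76 FPKM in siNT cells. The siE2F7 library was the higher one at every time, and the lowest siE2F7 value lay above the highest siNT value. It rose by 0.74 ± 0.10 (SE) on the log2 scale, or 1.67-fold (limma, adjusted p = 0.0052; 95% interval 0.49 to 0.98). The call held when the libraries of any 1 time were left out. POM121, which anchors the pore in the membrane, had 13.9, 12.0 and 14.9 FPKM in siE2F7 and 13.4, 14.4 and 15.6 FPKM in siNT, and a log2 change of -0.092 ± 0.086 (limma, adjusted p = 0.52). Its reads may be shared with the near-identical POM121C, and it shares its locus with the entry NSUN5P2.

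The promoter of NUP210 is shown because the gene moved farthest (RefSeq, GRCh38.p14, chr3:13420273-13420572, minus strand). It runs from 250 bases before the start of transcription to 50 after it, and 81.3% of its bases are G or C. It held none of 3 motifs searched on both strands, namely E2F-like words (TTTCCCGC, TTTCGCGC, TTTGCCGC or TTTGGCGC), TTTGAA, the core of the cell cycle homology region (CHR) of mitotic genes, and CCAAT, so that no letter is in capitals.
NUP210: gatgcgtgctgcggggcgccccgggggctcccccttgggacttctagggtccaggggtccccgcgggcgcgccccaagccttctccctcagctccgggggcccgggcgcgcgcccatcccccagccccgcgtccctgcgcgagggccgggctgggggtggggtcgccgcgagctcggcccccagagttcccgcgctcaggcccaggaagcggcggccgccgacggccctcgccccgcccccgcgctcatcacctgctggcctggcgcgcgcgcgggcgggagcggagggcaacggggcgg

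Of the 3 matched genes grouped with the central channel 2 rose, NUP62 and its namesake NUP62CL, while NUPL1, outside the name rule, fell. NUP62, an FG protein which lines the channel (hg19, chromosome 19, 50392914 to 50437193), had 47.9, 49.5 and 47.9 FPKM in siE2F7 and 41.1, 37.8 and 40.5 FPKM in siNT. All 3 siE2F7 libraries were above all siNT libraries, and the log2 change was 0.28 ± 0.068 (limma, adjusted p = 0.034). The locus overlaps ATF5, and counting by strand is not stated. NUP62CL, named for its likeness to the C-terminal part of NUP62 (hg19, chromosome X, 106366657 to 106449670), stood much lower, at 6.46, 7.20 and 5.73 FPKM in siE2F7 and 4.34, 5.68 and 3.95 FPKM in siNT. It rose by 0.48 ± 0.10 (limma, adjusted p = 0.025), and its arms did not overlap either. NUP54, a partner of NUP62 in the channel, had 37.5, 36.8 and 36.6 FPKM in siE2F7 and 36.7, 32.3 and 34.8 FPKM in siNT, with a log2 change of 0.097 ± 0.068 (limma, adjusted p = 0.38). The calls of NUP62 and NUP62CL ended when the libraries of any 1 time were left out, with adjusted p between 0.0682 and 0.145 for NUP62 and between 0.0563 and 0.0975 for NUP62CL in limma.

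The remaining channel subunit is NUPL1 (NUP58), which the name rule does not match. It had 18.3, 16.2 and 16.2 FPKM in siE2F7 cells at 0, 3 and 12 h, against 27.6, 24.3 and 22.8 FPKM in siNT cells. Every siE2F7 value was below every siNT value, and the gene fell by 0.56 ± 0.069 on the log2 scale (limma, adjusted p = 0.0037). NUP62 and NUPL1, partners in one complex, had calls of opposite sign, and the difference between them was not tested.

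NUP50 was the basket protein that passed. It is a mobile nucleoporin of the nuclear side that binds importin alpha and helps to release its cargo (hg19, chromosome 22, 45559726 to 45583890). Its levels were 49.0, 53.2 and 62.8 FPKM in siE2F7 and 37.3, 42.9 and 48.3 FPKM in siNT. At each time the siE2F7 library was higher by a like ratio, with log2 ratios of 0.39, 0.31 and 0.38 at 0, 3 and 12 h. The log2 change of 0.36 ± 0.063 (limma, adjusted p = 0.012) stayed called without the libraries of any 1 time, but not without the variance trend (limma, adjusted p = 0.054). TPR, the filament protein of the basket, had 23.7, 23.6 and 24.7 FPKM in siE2F7 and 20.6, 23.3 and 21.5 FPKM in siNT, with no overlap and a log2 change of 0.14 ± 0.073 (limma, adjusted p = 0.24). Its locus holds 2 other entries, C1orf27 and OCLM. NUP153, which ties the basket to the pore, had a log2 change of 0.098 ± 0.069 (limma, adjusted p = 0.39).

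**Figure D4:**
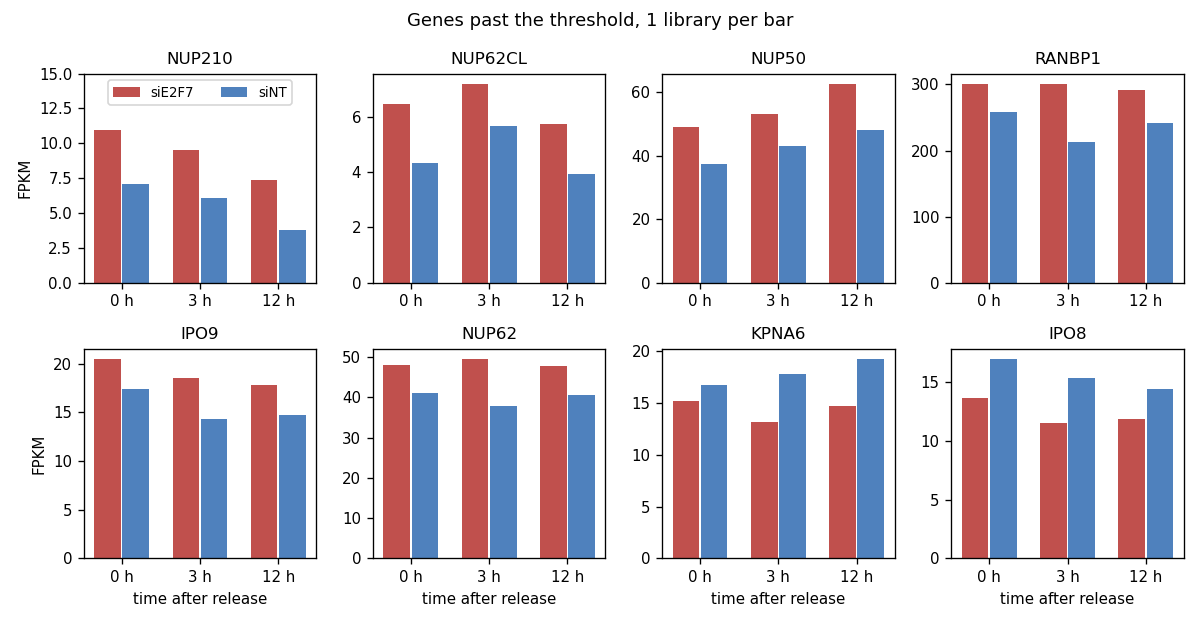
FPKM of the 8 genes past the threshold at 0, 3 and 12 h after release, each bar 1 library, siE2F7 left and siNT right at each time, with a scale of its own for each gene. The siE2F7 bar is the higher one at every time for NUP210, NUP62CL, NUP50, RANBP1, IPO9 and NUP62, and the lower one for KPNA6 and IPO8.

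No scaffold nucleoporin passed. The Y complex, which forms the outer rings, had 7 members with log2 changes between -0.032 and 0.20 and a median of 0.089. NUP160, its highest, had 30.4, 35.2 and 29.4 FPKM in siE2F7 and 26.0, 29.5 and 26.9 FPKM in siNT, higher at each time, with a log2 change of 0.20 ± 0.067 (limma, adjusted p = 0.088). NUP37, its lowest, had 23.1, 23.6 and 28.5 FPKM in siE2F7 and 30.5, 20.9 and 26.1 FPKM in siNT, lower at 0 h and higher at the later times. NUP85 was at 41.7, 51.7 and 42.5 FPKM in siE2F7 and 39.2, 41.8 and 44.3 FPKM in siNT, higher in siE2F7 at 0 and 3 h and lower at 12 h. The 5 inner ring genes, which hold the scaffold to the membrane, lay between -0.081 (NUP93) and 0.20 (NUP205). NUP205 had 24.1, 22.6 and 23.2 FPKM in siE2F7 and 19.8, 21.4 and 19.8 FPKM in siNT, without overlap (limma, adjusted p = 0.12). NUP93, which links the inner ring to the channel, had 39.8, 37.1 and 40.6 FPKM in siE2F7 and 44.8, 35.7 and 44.4 FPKM in siNT (limma, adjusted p = 0.498).

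Of the cytoplasmic face and the mRNA export factors, no gene matched by the name rule passed either. NUPL2 of the same face, which the rule does not match, fell and is given below. The 5 matched genes lay between -0.047 (NUP88) and 0.074 (NUP98), the narrowest span of the roles with more than 3 members. NUP98, an FG protein found on both faces and partner of RAE1, had 33.5, 36.7 and 42.9 FPKM in siE2F7 and 30.9, 37.2 and 39.3 FPKM in siNT (limma, adjusted p = 0.51; 95% interval -0.083 to 0.23). NUP88, which holds NUP214 at the cytoplasmic filaments, had 25.8, 24.1 and 26.2 FPKM in siE2F7 and 25.3, 26.7 and 26.6 FPKM in siNT (limma, adjusted p = 0.69). The locus of NUP88 overlaps the entries C1QBP and RPAIN, and that of NUP98 overlaps PGAP2. RANBP2 (NUP358), the main filament protein, had 23.8, 23.0 and 21.9 FPKM in siE2F7 and 20.7, 26.0 and 22.4 FPKM in siNT, higher at 0 h and lower at 3 h. Its log2 change was -0.00024 ± 0.087 (limma, adjusted p = 0.999). Reads of RANBP2 may be shared with its near-identical RGPD copies.

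Among the importin alpha adaptors, which read the classical import signal and hand cargo to importin beta, 1 of 6 changed. KPNA6 (hg19, chromosome 1, 32573644 to 32642168) had 15.2, 13.2 and 14.7 FPKM in siE2F7 and 16.7, 17.8 and 19.2 FPKM in siNT. All siE2F7 values lay below all siNT values, and it fell by 0.32 ± 0.084 (limma, adjusted p = 0.046). In limma the call ended with centring on the library median (adjusted p = 0.052), with quantile normalization (0.053), with genes listed at any time (0.055), without the variance trend (0.10) and without the libraries of 3 h (0.196) or 12 h (0.125). KPNA3, the highest of the adaptors, had 27.3, 18.6 and 22.7 FPKM in siE2F7 and 20.5, 17.7 and 21.6 FPKM in siNT, a gap seen mostly at 0 h (limma, adjusted p = 0.21). KPNA5, the lowest of the 50 genes in level, had 2.51, 3.34 and 4.12 FPKM in siE2F7 and 3.20, 2.77 and 3.50 FPKM in siNT (limma, adjusted p = 0.87). KPNA2, the most abundant adaptor, is taken up with the times.

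The import receptors of the importin beta family gave 1 call each way among 11. IPO9, which carries histones into the nucleus (hg19, chromosome 1, 201798288 to 201853422), had 20.5, 18.5 and 17.9 FPKM in siE2F7 and 17.4, 14.4 and 14.7 FPKM in siNT. The arms did not overlap, and it rose by 0.29 ± 0.072 (limma, adjusted p = 0.037). IPO8, a close relative of IPO7 (hg19, chromosome 12, 30781915 to 30848929), had 13.6, 11.5 and 11.9 FPKM in siE2F7 and 17.0, 15.4 and 14.5 FPKM in siNT. All siE2F7 values were below all siNT values, and it fell by 0.34 ± 0.075 (limma, adjusted p = 0.027). The call of IPO9 ended without any 1 time (limma, adjusted p between 0.080 and 0.17), and that of IPO8 without 0 h (0.078) or 3 h (0.13). IPO7 itself had 74.5, 104 and 81.7 FPKM in siE2F7 and 75.0, 100.3 and 89.8 FPKM in siNT, with a log2 change of -0.029 ± 0.068 (limma, adjusted p = 0.81). The locus of IPO7 overlaps the entry SNORA23.

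The receptors just outside the threshold were IPO5 and KPNB1. IPO5, an importer of ribosomal proteins, had 67.6, 62.8 and 54.4 FPKM in siE2F7 and 56.3, 53.7 and 47.7 FPKM in siNT, higher at each time, with a log2 change of 0.23 ± 0.062 (limma, adjusted p = 0.054). It passed in limma when each library was centred on its median (adjusted p = 0.039) and with 3 other settings. KPNB1, importin beta 1, the receptor that the alpha adaptors bind, had 120.1, 129 and 129 FPKM in siE2F7 and 138, 145 and 152 FPKM in siNT. Every siE2F7 library lay below every siNT library, with a log2 change of -0.20 ± 0.063 (limma, adjusted p = 0.076), and it passed after quantile normalization (limma, adjusted p = 0.044). The transportins TNPO1, TNPO2 and TNPO3, which carry RNA-binding proteins such as hnRNPs and SR proteins, did not pass in limma, with changes of -0.088 ± 0.065, 0.17 ± 0.072 and 0.054 ± 0.079 on the log2 scale.

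No exportin passed. XPO1 (CRM1), the receptor for leucine-rich export signals and the most abundant of the 6, had 111, 127 and 128 FPKM in siE2F7 and 119.6, 119.7 and 130.1 FPKM in siNT, with a log2 change of -0.019 ± 0.068 (limma, adjusted p = 0.88; 95% interval -0.18 to 0.14). XPO7, the highest, had 30.2, 25.0 and 24.5 FPKM in siE2F7 and 26.1, 21.9 and 21.0 FPKM in siNT. Its log2 ratios of 0.21, 0.19 and 0.22 at 0, 3 and 12 h were close together, and the change of 0.21 ± 0.065 had an adjusted p of 0.077 in limma. XPO6, the exporter of actin and profilin and the lowest, had 31.4, 31.3 and 28.2 FPKM in siE2F7 and 32.7, 32.2 and 35.7 FPKM in siNT, with a gap mainly at 12 h (limma, adjusted p = 0.28). XPO5, which carries microRNA precursors, and XPOT, which carries tRNA, were at -0.015 ± 0.069 and 0.045 ± 0.062 on the log2 scale and did not pass in limma.

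Of the Ran pair, RANBP1 rose. RANBP1 helps RANGAP1 to switch Ran to its GDP form (hg19, chromosome 22, 20105024 to 20114704), and was among the 3 most abundant of the 50 genes. It had 301, 300.3 and 292 FPKM in siE2F7 and 259, 212 and 242 FPKM in siNT, with the widest ratio at 3 h and no overlap. The log2 change was 0.33 ± 0.079, or 1.26-fold (limma, adjusted p = 0.035), a call that ended without the libraries of any 1 time (limma, adjusted p between 0.059 and 0.10). RAN itself, the highest of the 50 genes in level per transcript length, had 534, 552 and 594 FPKM in siE2F7 and 521, 461 and 575 FPKM in siNT. It was higher in siE2F7 at each time, with a log2 change of 0.11 ± 0.081 (limma, adjusted p = 0.39; 95% interval -0.074 to 0.30).

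Further genes of the pore and of transport, 20 under symbols that the name rule does not match, gave 1 rise and 2 falls, so 3 of 20 were called where 13.9% of all genes were (6.76% higher and 7.13% lower), a share near the background. RANGRF (MOG1), a Ran-binding factor that releases its nucleotide, had 13.5, 12.5 and 15.5 FPKM in siE2F7 and 10.7, 7.37 and 10.5 FPKM in siNT, without overlap. It rose by 0.55 ± 0.098 (limma, adjusted p = 0.013), though not without the libraries of 3 h (limma, adjusted p = 0.0675). NUPL2, which binds the mRNA export factor GLE1 at the cytoplasmic face, fell with NUPL1: it had 12.2, 10.8 and 10.3 FPKM in siE2F7 and 15.8, 15.0 and 15.3 FPKM in siNT, and a log2 change of -0.47 ± 0.078 (limma, adjusted p = 0.0094; adjusted p = 0.052 without 3 h). Of the 17 that did not pass, RANBP3, a cofactor of XPO1, was highest at 0.26 ± 0.085 (limma, adjusted p = 0.085) and AAAS, a pore protein named for triple A syndrome, lowest at -0.13 ± 0.092 (limma, adjusted p = 0.39). Without the time block none of these calls remained (limma, adjusted p = 0.135 for NUPL1, 0.209 for NUPL2 and 0.334 for RANGRF). The median of the 20 was 0.063.

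Levels at the 3 times are set side by side without a test, because libraries of different times list different genes and may have been scaled separately. KPNA2 differed most between times (hg19, chromosome 17, 66031848 to 66042970). It had 206, 256 and 607 FPKM in siE2F7 cells at 0, 3 and 12 h, and 217, 249.6 and 465 FPKM in siNT cells. Both arms were highest at 12 h, with log2 differences between 12 h and 0 h of 1.56 in siE2F7 and 1.10 in siNT. At 12 h siE2F7 stood above siNT by a log2 ratio of 0.38, while the ratio was -0.075 at 0 h, and over the 3 times KPNA2 did not pass (0.12 ± 0.098; limma, adjusted p = 0.47). The mitotic genes CCNB1 and PLK1, looked up for this pattern after the values of KPNA2 were seen, had differences between 12 h and 0 h of 1.72 and 2.47 in siE2F7 and of 1.16 and 1.77 in siNT. Their log2 ratios of siE2F7 over siNT were -0.28 for both at 0 h, -0.097 and -0.19 at 3 h, where KPNA2 was at 0.039, and 0.28 and 0.42 at 12 h. Neither passed over the 3 times, and whether the arms differed in the share of cells near mitosis was not tested.

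Other differences over time were smaller. At least 1.25-fold higher at 12 h than at 0 h in both arms were 4 of the 50 genes, KPNA2, TNPO2, NUP50 and NUP98, against 8.78% of all genes. NUP210 alone was at least 1.25-fold lower in both arms, against 13.8% of all genes, with log2 differences of -0.57 in siE2F7 and -0.89 in siNT. TNPO2, a relative of the hnRNP importer TNPO1, had 14.8, 16.1 and 23.3 FPKM in siE2F7 and 13.3, 14.9 and 19.7 FPKM in siNT. Also among the 5 highest were KPNA5 and NUP35, and among the 5 lowest NUP43, XPO7, XPOT and IPO5. The median log2 difference between 12 h and 0 h was 0.014 in siE2F7 and 0.073 in siNT over the 50 genes, and -0.046 in siE2F7 and -0.034 in siNT over all genes.

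**Figure D5:**
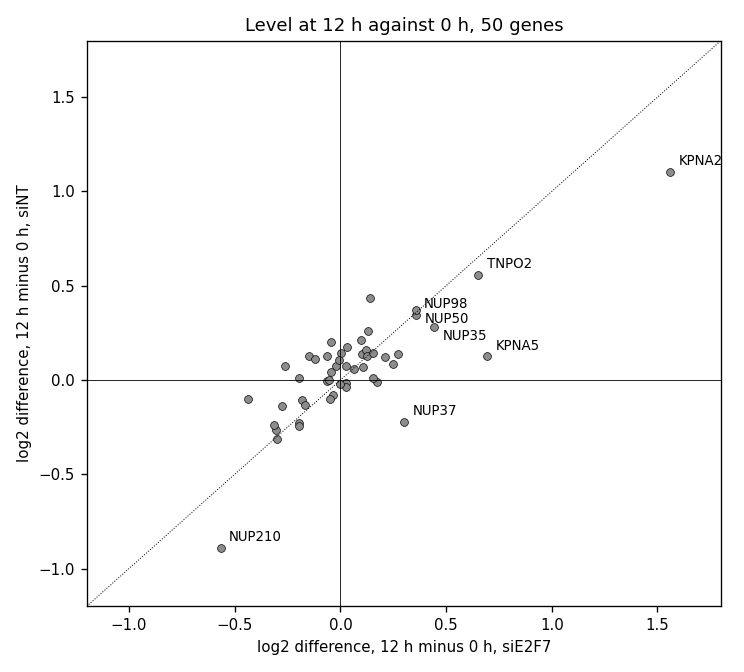
Log2 difference between 12 h and 0 h of each of the 50 genes in siE2F7 (horizontal axis) and in siNT (vertical axis), 1 library per arm and time; the dotted line marks equal differences. KPNA2 lies at 1.56 and 1.10 and NUP210 at -0.57 and -0.89, and most other genes lie near 0 in both arms.

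The promoter of KPNA2 is shown because it belongs to the gene with the widest difference over time (RefSeq, GRCh38.p14, chr17:68035485-68035784, plus strand, 250 bases before the start of transcription to 50 after it). Capitals mark the matches: TTTGAA at position 33 on the printed strand and once on the other strand (TTCAAA at -99), and CCAAT at -89 and -58, where positions count from the start of transcription.
KPNA2: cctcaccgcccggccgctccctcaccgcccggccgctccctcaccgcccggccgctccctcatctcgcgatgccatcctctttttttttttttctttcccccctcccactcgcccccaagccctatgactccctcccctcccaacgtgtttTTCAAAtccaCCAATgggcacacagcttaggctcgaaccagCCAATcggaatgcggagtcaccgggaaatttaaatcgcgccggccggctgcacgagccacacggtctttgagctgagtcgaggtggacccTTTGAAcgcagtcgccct

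Promoters of 44 of the 50 genes, 56 windows in all, were in the RefSeq table, and KPNA4, KPNA5, KPNB1, NUP43, RANBP1 and XPO7 were not matched. The letters TTTGAA were in 23.2% of these windows, in 15.2% of all 35116 promoters and in 10.2% of those of tested genes. CCAAT was in 42.9% of the windows and in 34.6% of all promoters. Some genes have several windows, and those of NUP98 overlap. The matches were in 13 windows of 11 genes for TTTGAA and in 24 windows of 20 genes for CCAAT. An E2F-like word was in 3 windows, or 5.36%, against 3.31% of all promoters and 5.01% of those of tested genes. The 3 windows are shown, 30 bases each with the word in capitals, since E2F factors bind such words. They belong to NUP155 at chr5:37371067-37371096 on the minus strand, IPO11 at chr5:62412738-62412767 on the plus strand and IPO7 at chr11:9384643-9384672 on the plus strand, all GRCh38.p14.
NUP155: caaggcgctcgTTTGGCGCgcgcgccctag
IPO11: tgtgacgtagtTTTCGCGCgtccgcgtcgt
IPO7: cttctctttccTTTCGCGCcggttgccgct

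None of the 3 genes passed the test. NUP155, of the inner ring, had 39.8, 35.8 and 32.8 FPKM in siE2F7 and 33.6, 32.7 and 30.5 FPKM in siNT, with a log2 change of 0.16 ± 0.067 (limma, adjusted p = 0.15). IPO11, an import receptor, had 16.3, 14.0 and 15.6 FPKM in siE2F7 and 13.5, 14.0 and 13.4 FPKM in siNT, without overlap though by little at 3 h, and with a log2 change of 0.16 ± 0.082 (limma, adjusted p = 0.23). Of the called genes with a window, KPNA6, IPO9 and NUP62CL held CCAAT, NUP50 held TTTGAA in 1 of 2 windows, and NUP62, NUP210 and IPO8 held none of the words. A match is a description of these letters and not of binding.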

How the data were processed

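Total RNA of 6 U2OS libraries was sequenced with a TruSeq kit, per the labels' protocols. The authors deposited FPKM per gene, with the same genes listed in both arms of a time (12799, 12475 and 12299 at 0, 3 and 12 h), and CASAVA 1.8, GRCh37 and hg19 appear in the submitters' processing notes. The aligner, annotation and strand handling are not stated there. Gene coordinates are the deposited ones, on hg19, with each start moved up by a single base.

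Values were taken as log2(FPKM + 0.1) and fitted with limma 3.58.1 in R 4.3.3 over the 11886 genes listed at all 3 times, with arm as the tested term, time as a block and a variance trend (2 residual and 5.41 prior degrees of freedom); p-values were Benjamini-Hochberg adjusted over all genes. A fold on this scale understates the change of low genes. The fit was also run on data simulated from its own variance estimates, which checks the calculation and not the calls given here. Single times have 1 library per arm and no test.

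The 50 genes and the lists were chosen with earlier results of these data known. Named genes are those past the threshold, the highest and lowest of each role, the 3 most abundant, the 5 highest and 5 lowest at 12 h over 0 h and the 5 with the widest range of ratios; other genes named (KPNB1, XPO1, XPO5, IPO7, IPO11, NUP155, TPR, TNPO1, TNPO3, CCNB1 and PLK1) were chosen after their values were seen. NUP210L and KPNA7 also fit the name rule and have no value here. Alternatives were other pseudocounts (1 and 0.01), a filter at 1 FPKM, genes listed at any time, centring, quantile normalization, no variance trend, no block, robust estimation, no genes with shared loci, and leaving out each time. Promoter windows are from RefSeq.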

Additional observations from a re-analysis of the deposited data

Results flagged for a closer look

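For 5 of the 50 genes the log2 ratio of siE2F7 over siNT had opposite signs at different times and spanned the widest range. Each ratio sets 1 library against 1, so the difference between times was not tested.

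KPNA5, an importin alpha adaptor, spanned 0.603, with ratios of -0.34, 0.26 and 0.23 at 0, 3 and 12 h, at no more than a few FPKM. NUP37 of the Y complex spanned 0.571, with ratios of -0.40, 0.17 and 0.13. KPNA2 spanned 0.458, with ratios of -0.075, 0.039 and 0.38, and CCNB1 and PLK1 had ratios of the same signs as KPNA2 at 0 and 12 h and of the opposite sign at 3 h (-0.097 and -0.19). RANBP2, which may share reads with its RGPD copies, spanned 0.381, with ratios of 0.20, -0.18 and -0.027. NUP85 of the Y complex spanned 0.364, with ratios of 0.087, 0.31 and -0.059.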

How the results depend on the processing

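The count of genes that rose, 6 of 50, was 7 with the filter at 1 FPKM, with centring and with robust estimation. It was 2 without the variance trend, 0 without the time block and 2 when the libraries of any 1 time were left out (2 to 2). The count that fell, 2, was 1 with genes listed at any time and with each library centred on its median, 0 without the variance trend and without the time block, and 0 to 1 with 1 time left out (0 without 3 h). With quantile normalization the 2 were IPO8 and KPNB1, and KPNA6 was not called. In limma 3 genes were lower at an unadjusted p under 0.05 in each setting with none called lower, and 8 of the 50 passed that level in either direction without the block. NUP210 and NUP50 kept their calls with any 1 time left out, and without the variance trend NUP210 and NUP62CL did. Over all genes 803 rose and 847 fell; these counts were 400 and 452 without the variance trend, 15 and 17 without the time block, and 332 to 557 and 431 to 560 with 1 time left out. The fit without the block puts differences between times into the error, and leaving out a time leaves 4 libraries. The median change of the 50 genes, 0.0568, was 0.0744 with centring, 0.08 with quantile normalization, 0.0743 without genes that share a locus and 0.0343 to 0.057 with 1 time left out. A tally was made over the genes picked for naming, which include E2F7, NUPL1, NUPL2 and RANGRF from outside the 50. Over all alternatives together no called change in it reversed, 39 calls were lost and 4 gained (all IPO5). KPNB1 is not in that tally, and was called lower after quantile normalization (limma, adjusted p = 0.0442). NUP62 has no value where shared loci were left out. Depth is unknown, so no counting error can be given for any FPKM value, and the arms have 1 library per time. The time block pairs siE2F7 with siNT at each time, and every call among the 50 genes rests on that pairing, as do those of NUPL1, NUPL2 and RANGRF. E2F7 itself missed the threshold without the block (limma, adjusted p = 0.12). The labels carry no replicate numbers for another pairing.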
